A study of Caenorhabditis elegans with 5 samples.

Results

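The gene models described here were at least 2-fold higher in the hrde-1 mutant library than in any other and stood on neither of the 2 lists of known nuclear RNAi targets. A gene model was taken when it had at least 5 RPKM (reads per kilobase of model, scaled to the depth of the library) in hrde-1 and when its RPKM + 1 there was at least 2 times that of each of the other 4 libraries. Models marked as germline nuclear RNAi-mediated transcriptional silencing targets (GRTS) or germline nuclear RNAi-dependent heterochromatin targets (GRH) were left out. So were irg-4 and irg-5 and the clec-, fbxa- and fbxb- genes, of which irg-4, irg-5, clec-52, fbxa-107 and fbxb-97 passed the same values. This gave 33 models of 32 genes (nhr-88 has 2 models) out of 20911 models. They were 0.361% of the 9137 models on neither list that reached 5 RPKM in hrde-1. The members were thus chosen by their measured RPKM in all 5 libraries, and their excess in hrde-1 over the other libraries is given below as a description, without a test.

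Poly(A) RNA was sequenced from synchronized whole young adults grown at 19 °C on E. coli OP50, in 5 libraries with 1 library per genotype. The strains were WT (N2), the single mutant set-32(ok1457), a double mutant of met-2 and set-25 that carried the alleles n4256 and ok5021, a triple mutant that carried both of these and ok1457, and an hrde-1 mutant, whose allele is given as tm-1200 in its sample label and as tm1200 in the growth protocol. Without replicates the spread between animals of a genotype is unknown, and the intervals given cover counting error only (95%, exact Clopper-Pearson, from estimated reads). In whole animals, more RNA per cell and more cells of a type cannot be told apart. Where 5 values follow each other below, they stand in the order wild type, set-32, double mutant, triple mutant, hrde-1.

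HRDE-1 is an Argonaute of the germline. Bound to small RNAs it enters the nucleus, where the matching genes are silenced and marked by histone H3 lysine 9 methylation, and the other mutated genes encode methyltransferases for that residue. Several of the genes below are known instead from the soma: cyp-35 genes encode cytochrome P450 enzymes that foreign compounds induce in the intestine, asp genes encode aspartyl proteases, and lea-1 encodes a protein related to those that protect plant embryos during drying.

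The libraries were shallow. The RPKM of 1 read on a 1-kb model was estimated at 0.412 in wild type, 0.451 in set-32, 0.482 and 0.344 in the double and triple mutants, and 0.552 in hrde-1, which makes hrde-1 the shallowest library (1811100 reads) and the triple mutant the deepest (2904400 reads). In hrde-1 a level of 5 RPKM thus rested on 9.06 reads per kb. The hrde-1 model itself had 227.53 RPKM in wild type and 159.67 in hrde-1, a level over the whole model that does not check the deletion, while met-2 had 47.34 RPKM in wild type and 12.56 and 9.45 in the strains that carry its mutation. The set-32 model was at 12.51 RPKM in wild type, and at 8.15 and 5.65 in the single and triple mutants of set-32, and set-25 had 17.5 in wild type and 10.34 and 8.64 in its mutants. The summed intestine markers (5 genes) were 4554 RPKM in hrde-1, inside the range of the other libraries (4034 to 5416). The germline markers (6 genes) were at 1209, also inside theirs (1155 to 1298). The oocyte markers (5 genes) were at 2170 against 1492 to 1830, and the muscle markers (5 genes) at 1382 against 1587 to 1981. These groups thus stood just outside the other libraries. The neuron and hypodermis sums were inside the range, and the low sums of sperm markers (14.94 RPKM over 5 genes, with 1 at 0) and early embryo markers (5.3 over 4 genes) were above it (9.02 to 13.36 and 3.07 to 4.52). The longer list of sperm genes was not raised in hrde-1. Of 75 with 5 RPKM in either library, 3 were at least 2-fold higher than in wild type and 5 lower (median log2 ratio -0.22). In set-32, 48 of 78 were higher and 1 lower (median 1.09). Cuticle collagens were low in hrde-1: of 120 with 5 RPKM in either library, 61 were at least 2-fold lower than in wild type and 3 higher (median log2 ratio -1.03), while in set-32 44 of 121 were lower and 4 higher. The part of these differences in the members' values was not tested.

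The same rule picked models in every library. With set-32 as the high library 45 models passed (0.472%), with the triple mutant 28 (0.293%), with the double mutant 24 (0.251%) and with wild type 16 (0.172%). Among models on neither list, the number for hrde-1 was therefore not the highest of the 5, as the plot of models by library shows. The authors had identified the target loci behind both lists with an hrde-1 mutant. With hrde-1 as the high library 79 models passed the values whatever their lists or names, and 41 of them were GRTS or GRH models. Target-list models were not counted in this way for the other libraries.

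**Figure D1:**
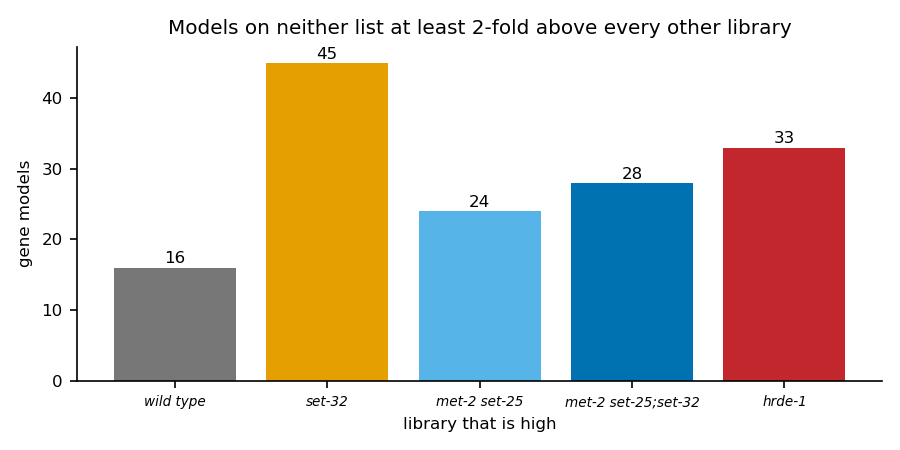
Number of gene models on neither target list (y axis) that had at least 5 RPKM in the library named on the x axis and were at least 2-fold above each of the other 4 libraries on RPKM + 1. The bars stand at 16, 45, 24, 28 and 33 models, with set-32 highest and hrde-1 next, and the axis gives the double and triple mutants by their genes.

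The members spanned a wide range of levels. Their hrde-1 RPKM ran from 5.3 (Y38H6C.21) to 277.34 (asp-12), with a median of 11.85, and 21 of 33 reached 10 RPKM and 7 reached 50 RPKM. The median over the members was 3.23 RPKM in wild type, with 2.37 in set-32, 2.71 in the double mutant and 2.95 in the triple mutant. In 9 members at least 1 of those libraries was at 0, and 10 members were below 2 RPKM in all 4 of them. The median fold over the highest other library was 2.57 (on RPKM + 1). It lay below 2.5 in 16 members, reached 3 in 14 and 4 in 7. The highest of the other libraries was the triple mutant for 13 members, the double mutant for 8, and wild type and set-32 for 6 each.

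**Figure D2:**
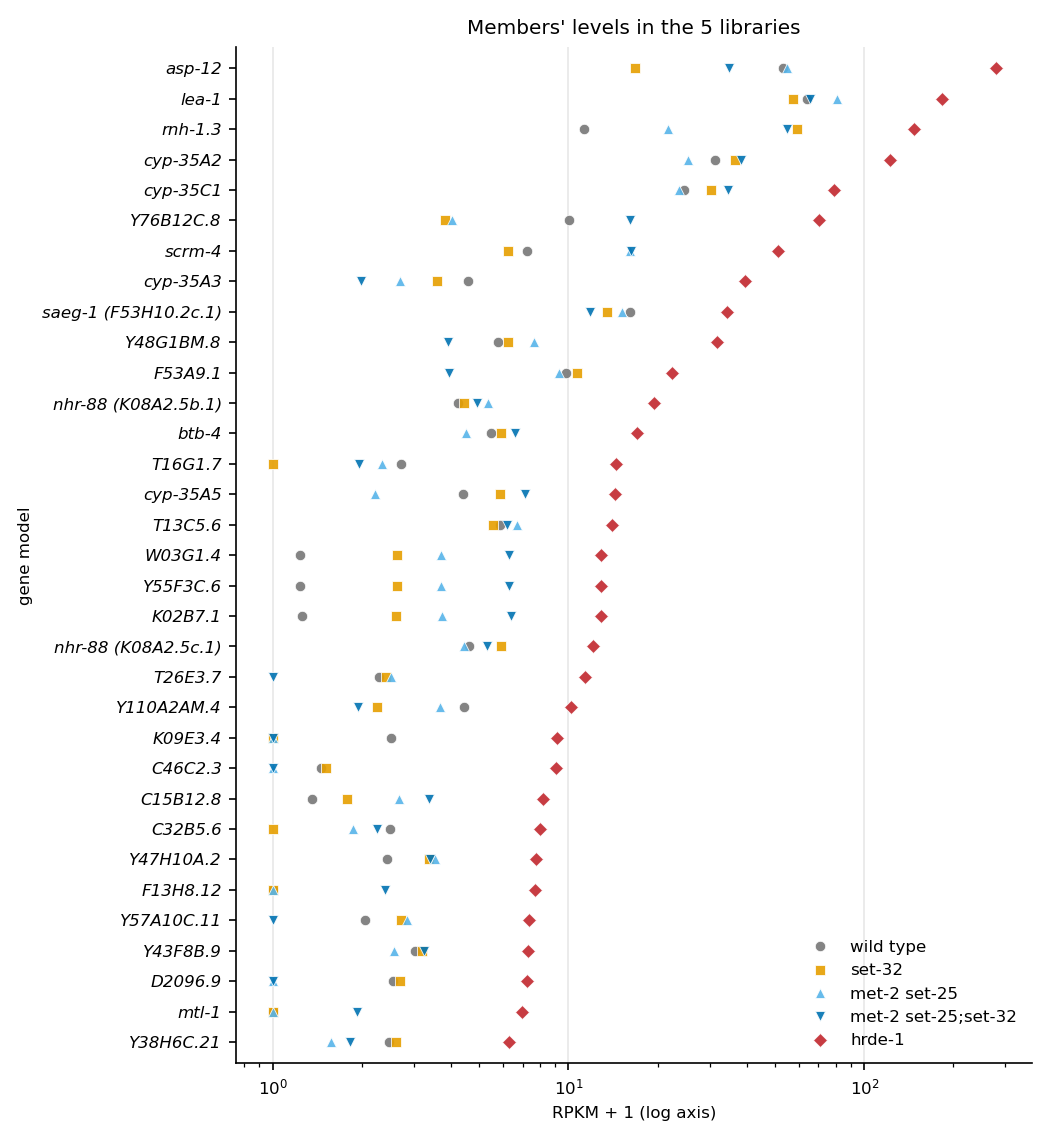
RPKM + 1 (x axis, log scale) of each of the 33 members (y axis, ordered by level in hrde-1) in the 5 libraries. The hrde-1 points run from 5.3 to 277.34 RPKM. The other 4 libraries lie close together for lea-1 and T13C5.6 and far apart for rnh-1.3 and W03G1.4.

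The number of reads limited how well each excess was measured. The rule chose the members for an excess in these same values, so the intervals describe counting error and are no test of it. Of the 29 members with an annotated length, 16 had an interval that excluded a ratio of 1 against each of the other 4 libraries, and 21 had one that excluded 1 against wild type. These 16 were cyp-35A2, cyp-35A3, cyp-35A5, cyp-35C1, asp-12, lea-1, rnh-1.3, scrm-4, saeg-1, the longer nhr-88 model, T16G1.7, Y76B12C.8, Y48G1BM.8, C46C2.3, C15B12.8 and K09E3.4. Fewer than 10 reads were estimated in hrde-1 for 10 members, among them mtl-1, F13H8.12, C32B5.6, D2096.9 and T26E3.7. The excess of those 10 over at least 1 other library was within counting error.

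**Figure D3:**
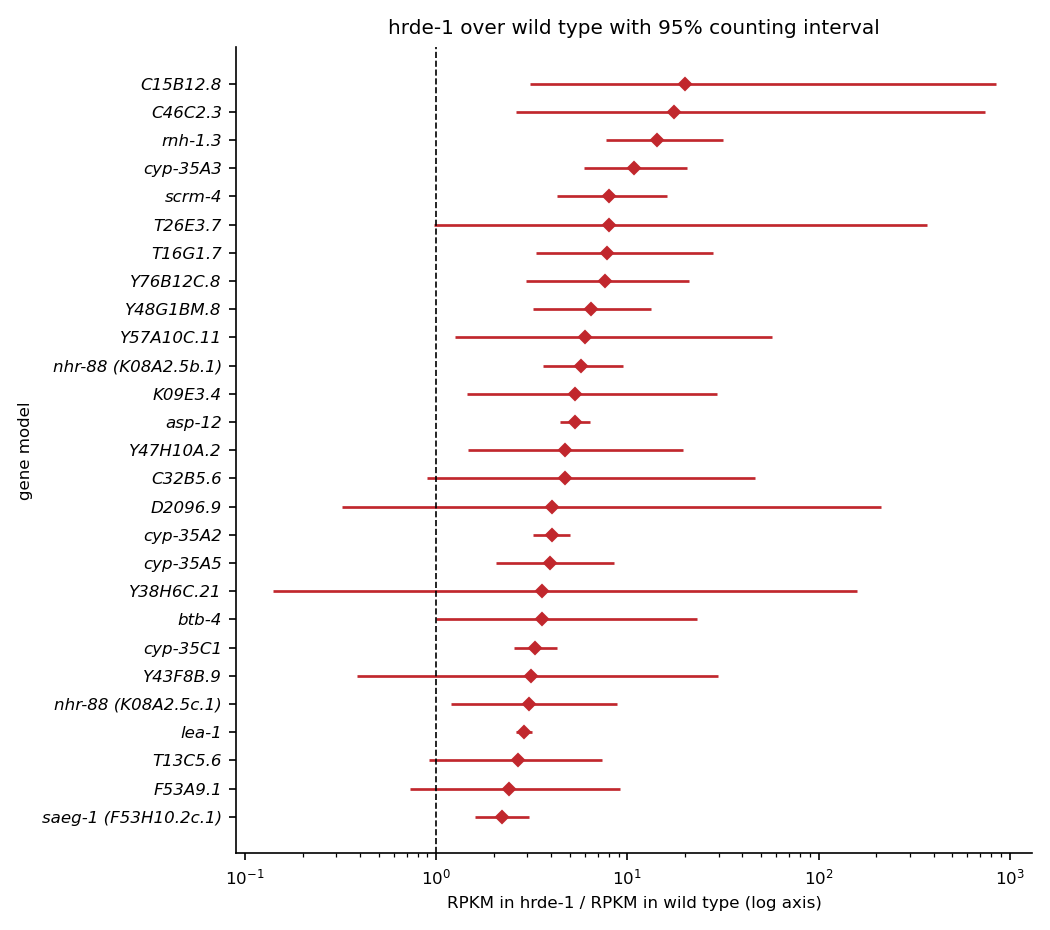
RPKM in hrde-1 over RPKM in wild type (x axis, log scale) for the 27 members with an annotated length and a wild-type value above 0. Points are ratios and lines are 95% exact counting intervals, which are narrow for lea-1, asp-12 and cyp-35A2 and cross 1 (dashed line) for members with few reads such as D2096.9 and Y38H6C.21.

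Cytochrome P450 genes of the cyp-35 family made up 4 members, all on chromosome V. cyp-35A3 (K09D9.2, V:4022609-4024482 in WBcel235, 7 exons) had 3.56 RPKM in wild type, against 2.60 in set-32, 1.70 and 0.99 in the double and triple mutants, and 38.38 in hrde-1. That was 10.8-fold its wild-type level (interval 5.94 to 20.6), and the largest excess over the highest other library of any member, 8.64-fold on RPKM + 1. cyp-35A2 (C03G6.15, V:7362319-7364182) had 30.26, 35.68, 24.33 and 37.29 RPKM in those 4 libraries in the same order and 121.56 in hrde-1, 4.02-fold wild type (3.22 to 5.03). cyp-35C1 (C06B3.3, V:13896663-13898487) had 23.62, 29.41, 22.64, 33.65 and 77.75 RPKM, 3.29-fold wild type (2.55 to 4.29). In both, the 4 other libraries stayed within a narrow band and hrde-1 stood apart from it. cyp-35A5 (K07C6.5, V:3936326-3938597) had 3.40, 4.87, 1.22, 6.11 and 13.32 RPKM, 3.92-fold wild type (2.04 to 8.49), and was 2.01-fold above the triple mutant on RPKM + 1, the closest of all members to the threshold. Near-identical family members can share reads. The estimated reads in wild type were not whole for cyp-35A3 (12.8), cyp-35A5 (12.2), cyp-35A4 (4.50) and cyp-35A1 (4.24). Whether these genes hold the same reads was not tested.

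The other cyp-35 genes followed in part. cyp-35A4 had 1.25, 0, 1.79, 2.44 and 5.04 RPKM, and so was also highest in hrde-1 but less than 2-fold above the triple mutant on RPKM + 1. cyp-35A1 had 1.18, 0.97, 0.69, 1.23 and 2.56 RPKM, below the 5 RPKM minimum. cyp-35D1 differed little between libraries, with 3.86, 3.02, 2.91, 2.53 and 4.44 RPKM, and cyp-35B1, cyp-35B2 and cyp-35B3 were at or near 0 throughout. Of the 10 cyp-35 models, 5 reached 5 RPKM in hrde-1 or wild type and all 5 were at least 2-fold higher in hrde-1 than in wild type. The rule had chosen 4 of these 5 for that excess, and cyp-35A3, cyp-35A4 and cyp-35A5 reached 5 RPKM through hrde-1 alone, so this count is set in part by the choice of members and the filter. Of the 63 other cyp models, 19 reached that level and 0 were 2-fold higher or lower (median log2 ratio 0.15). Over all 9941 models compared with wild type, 2.68% were higher and 3.55% lower. In the list of detoxification genes, 12 of 113 compared were higher and 3 lower (median log2 ratio 0.16, against 0.01 over all models). The list's median was also 0.16 in set-32, with 0.14 in the double and 0.05 in the triple mutant. There 5 of 109, 5 of 106 and 1 of 108 were higher. Of its 104 models on neither target list with 5 RPKM in hrde-1, 5 were members, the cyp-35 genes and mtl-1. The higher counts of the lists in hrde-1 include the members, which the rule chose for that excess. Members also came from the lists of nuclear hormone receptors (4 of 76 compared higher, 3 lower), of F-box, MATH and BTB genes (7 of 56 higher, 1 lower) and of proteases, lipases and secreted proteins (3 of 37 higher, 2 lower), and from no other of the 15 lists, with the models left out by name not counted.

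**Figure D4:**
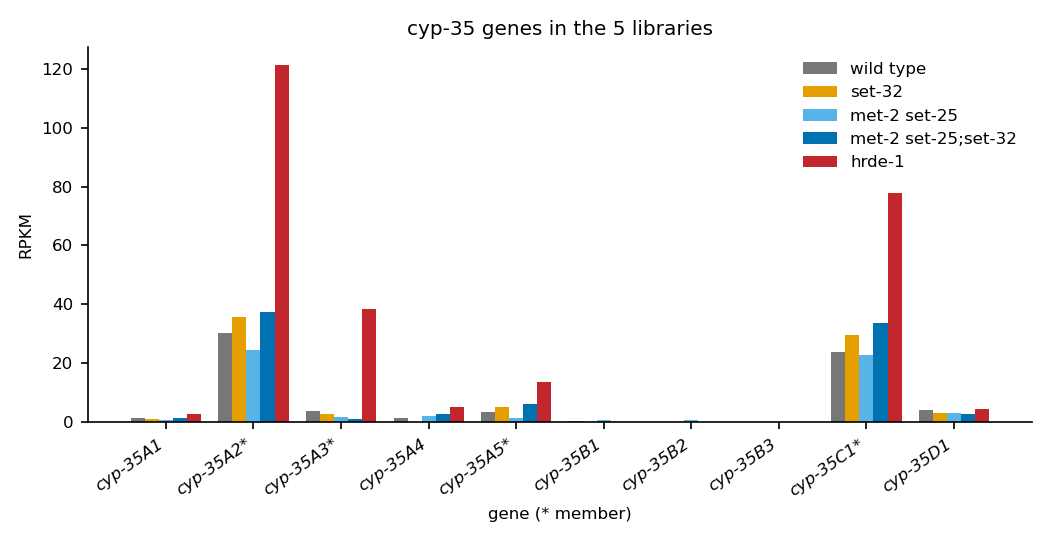
RPKM (y axis, linear) of the 10 cyp-35 genes (x axis, members starred) in the 5 libraries, 1 bar per library. The hrde-1 bars of cyp-35A2 (121.56 RPKM), cyp-35C1 (77.75) and cyp-35A3 (38.38) stand above the other 4 libraries, while the cyp-35B genes are at or near 0.

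mtl-1, a metallothionein that binds heavy metals, was at 0 RPKM in wild type, set-32 and the double mutant, at 0.93 in the triple mutant and at 5.95 in hrde-1. The value in hrde-1 corresponds to 4.02 reads and was 1.80-fold a floor of 3 reads in the wild-type library. Counting intervals included 1 against all 4 libraries. The other metallothionein gene, mtl-2, was highest in set-32 (118.2, 339.52, 127.67, 139.36 and 193.7 RPKM).

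The aspartyl protease gene asp-12 (F21F8.4, V:8269210-8272056, 4 exons) was the most abundant member. It had 52.14 RPKM in wild type, against 15.73 in set-32, 53.76 and 33.91 in the double and triple mutants, and 277.34 in hrde-1, where it was 5.32-fold wild type (4.45 to 6.37). On RPKM + 1 it was also the member with the lowest set-32 level relative to wild type (RPKM ratio 0.302, interval 0.209 to 0.423). The genes on either side were not members. asp-6, which ends before asp-12 begins, had 975.26, 1260.07, 1032.67, 1305.67 and 1200.03 RPKM, and asp-5, which starts after it ends, had 291.43, 404.67, 276.91, 405.98 and 462.53. asp-5 was thus also highest in hrde-1, at 1.59-fold wild type (1.45 to 1.74). asp-14 had 26.26, 60.37, 30.76, 54.45 and 83.9 RPKM, with set-32 and the triple mutant too close to hrde-1 for the rule. Of the 17 asp models, 11 were compared with wild type, with 2 higher in hrde-1 (asp-12 and asp-14) and 1 lower.

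lea-1 (K08H10.1, V:10011923-10028168, 12 exons) is known for tolerance of drying and osmotic stress. It had 63.20 RPKM in wild type, with 56.19 in set-32, 79.77 and 64.36 in the double and triple mutants, and 182.16 in hrde-1. With an estimated 1384 reads in hrde-1 it was the best measured member, at 2.88-fold wild type (2.63 to 3.17) and 2.28-fold the double mutant (2.08 to 2.51). It overlaps acl-2 on the other strand, and whether counting used strand is not given in the sources used here.

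rnh-1.3 (C04F12.9, I:9710088-9710745, 4 exons), which encodes a ribonuclease H, an enzyme that cuts the RNA strand of RNA-DNA hybrids, was high in other mutants as well. It had 10.25 RPKM in wild type, against 58.18 in set-32, 20.73 and 53.72 in the double and triple mutants, and 146.17 in hrde-1. hrde-1 was 14.3-fold wild type (7.72 to 31.6) but 2.51-fold set-32 (1.78 to 3.52). Against wild type it was 5.68-fold in set-32 (2.98 to 13.0) and 5.24-fold in the triple mutant (2.77 to 11.9), both of which carry the set-32 mutation, and 2.02-fold in the double mutant, where the interval (0.923 to 5.11) included 1. The other rnh-1 genes did not share this order: rnh-1.2 had 26.9, 20.14, 27.92, 17.35 and 23.28 RPKM, rnh-1.0 stayed between 4.09 and 6.7, and rnh-1.1 was lowest in hrde-1, at 1.07.

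scrm-4 (F11A6.2, I:11680899-11682441, 6 exons) belongs to the phospholipid scramblase family, whose proteins move lipids between membrane leaflets. It had 6.25 RPKM in wild type, with 5.26 in set-32, 15.19 and 15.26 in the double and triple mutants, and 50.25 in hrde-1, 8.04-fold wild type (4.27 to 16.1). The double and the triple mutant were thus 2.43-fold (1.18 to 5.33) and 2.44-fold wild type (1.24 to 5.16), and set-32 was 0.842-fold (0.306 to 2.12). scrm-4 and rnh-1.3 therefore differed in which methyltransferase mutants lay between wild type and hrde-1. The other 7 scrm genes were all at 10.31 RPKM or less, and scrm-1, the only other of them that reached 5 RPKM in wild type or hrde-1, had 8.69 RPKM in wild type and 10.31 in hrde-1. scrm-4 lies opposite kpc-1.

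Genes for regulators were also among the members. nhr-88, a nuclear hormone receptor gene (II:2976639-2987023), entered with 2 of its 3 models. The model K08A2.5b.1 had 3.23 RPKM in wild type, against 3.43 in set-32, 4.35 and 3.92 in the double and triple mutants, and 18.49 in hrde-1, 5.72-fold wild type (3.64 to 9.52). The shorter model K08A2.5c.1 had 3.61, 4.90, 3.42, 4.31 and 11.07 RPKM, while K08A2.5a.1 had 6.85, 7.17, 4.73, 7.63 and 9.80 and was not a member. The models belong to 1 gene and can hold the same reads, so they are not separate evidence. saeg-1 (F53H10.2c.1, V:10852518-10865699), first known as a suppressor of an active EGL-4 kinase, had 15.10, 12.46, 14.12, 10.83 and 33.23 RPKM, 2.20-fold wild type (1.60 to 3.05). Its second model, F53H10.2a, is on the GRH list and had 15.58, 12.12, 12.65, 9.68 and 37.74 RPKM, so the gene is not free of a target mark. saeg-2, named for the same phenotype, was high in set-32 as well (7.81, 39.58, 8.39, 5.17 and 35.79 RPKM).

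Of the members with no role given here, T16G1.7, Y76B12C.8 and Y48G1BM.8 stood out most by fold and reads. T16G1.7 (V:12932941-12935112, 7 exons) had 1.72 RPKM in wild type, against 0 in set-32, 1.35 and 0.96 in the double and triple mutants, and 13.49 in hrde-1, 7.84-fold wild type (3.32 to 28.2). Its neighbour T16G1.6 was also highest in hrde-1 (2.42, 0.99, 7.08, 3.28 and 12.16 RPKM) but missed the rule through the double mutant, and T16G1.4 and T16G1.5 were at 1.21 RPKM or less in hrde-1. T16G1.7 overlaps T16G1.2 on the other strand.

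Y76B12C.8 (IV:1979988-1980357) had 9.05, 2.83, 3.03, 15.12 and 69.34 RPKM, an excess over wild type of 7.66-fold (2.95 to 20.9). It was 2-fold or more below wild type in set-32 and in the double mutant, on 1.60 estimated reads in each. Y48G1BM.8 (I:248624-251580) is annotated as a pseudogene and had 4.80, 5.25, 6.62, 2.93 and 30.82 RPKM, 6.42-fold wild type (3.20 to 13.2). It lies 8.37 kb from Y48G1BM.7, a GRTS model that was at 0 RPKM in all 5 libraries. The other pseudogene, K09E3.4 (X:17119294-17120907), had 1.52 RPKM in wild type, 0 in the 3 methyltransferase mutants and 8.13 in hrde-1, 5.35-fold wild type (1.45 to 29.6).

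C15B12.8 (X:6474264-6476645) had 0.36 RPKM in wild type, against 0.78 in set-32, 1.67 and 2.39 in the double and triple mutants, and 7.19 in hrde-1. These values stood for 1.01, 2.00, 4.00, 8.02 and 15.04 reads, so that the 19.97-fold ratio to wild type had an interval from 3.09 to 846. C46C2.3 (IV:9225125-9227781) had 0.46, 0.51, 0, 0 and 8.07 RPKM, or 13.0 reads in hrde-1 against 1 or 0 in each other library. C46C2.3 was thus close to undetected outside hrde-1, whereas C15B12.8 had reads in every library.

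W03G1.4, Y55F3C.6 and K02B7.1 did not match a gene in the annotation used and behaved as 1 item. W03G1.4 and Y55F3C.6 had the same values, 0.24 RPKM in wild type, against 1.64 in set-32, 2.71 and 5.28 in the double and triple mutants, and 11.85 in hrde-1, and K02B7.1 had 0.26, 1.62, 2.73, 5.37 and 11.84. R09E12.6 (0.24, 1.55, 2.61, 5.21 and 11.39), C17B7.7 (0.24, 1.55, 2.61, 5.29 and 10.92) and K02E7.3 (0.24, 1.52, 2.43, 5.20 and 10.91) followed the same values within 10% on RPKM + 1 and fell just outside the rule. The authors divided a read with several perfect alignments among its sites, so models with matching values may hold the same reads, which was not tested, and the 6 are taken here as 1 observation. Their lowest value was in wild type and the next highest after hrde-1 in the triple mutant.

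Most of the remaining members rested on few reads. F13H8.12 had 0, 0, 0, 1.39 and 6.68 RPKM in the 5 libraries, 2.08-fold the wild-type floor of 3 reads, and shares its strand and position with nmgp-1. T26E3.7 had 1.29, 1.41, 1.51, 0 and 10.37 RPKM, or 5.97 reads in hrde-1. btb-4, which encodes a BTB domain protein, had 4.48, 4.91, 3.5, 5.62 and 16.02 RPKM, and was the only one of 10 btb models with 5 RPKM in wild type or hrde-1 that was 2-fold higher in hrde-1. C32B5.6, D2096.9, Y57A10C.11, Y38H6C.21, Y43F8B.9 and Y47H10A.2 stood between 5.3 and 7 RPKM in hrde-1 and at 2.54 or less elsewhere. Y110A2AM.4, which did not match the annotation and has no read estimate, had 3.43, 1.25, 2.68, 0.95 and 9.19 RPKM. T13C5.6 had 4.86, 4.56, 5.69, 5.22 and 13.03 RPKM and shares its strand and position with mtp-18. F53A9.1 had 8.84, 9.68, 8.28, 2.95 and 21.33 RPKM, or 8.92 reads in hrde-1. For D2096.9, Y43F8B.9, Y38H6C.21 and mtl-1 no interval excluded 1 on the estimated reads. Those of Y43F8B.9 and Y38H6C.21 were not whole, so their intervals are uncertain.

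Just inside the threshold were cyp-35A5 (2.01-fold over the highest other library on RPKM + 1), K02B7.1 (2.02) and K08A2.5c.1 of nhr-88 (2.05), and just outside were R09E12.6 (1.995), tbx-11 (1.98) and C27D8.3 (1.95).

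The rule did not use the order among wild type and the 3 methyltransferase mutants, but it took only models whose hrde-1 level was at least 2 times each of them on RPKM + 1, so their values are also a description. The median log2 ratio to wild type over the 33 members was 0.08 in set-32, -0.06 in the double mutant and 0.11 in the triple mutant. The median in the double mutant was 0.04 over the members with a mean of at least 1 RPKM in these 4 libraries. Over the 13648 other models whose mean in these libraries lay within the range of the members, not matched to them one by one, the medians were 0.00, 0.07 and 0.00. In set-32, 20 members were above wild type, 11 below and 2 level. In the double mutant the split was 14 above and 17 below, and in the triple mutant 19 above and 14 below. The 3 comparisons share the wild-type library.

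Some members were also 2-fold from wild type in those mutants. In set-32, rnh-1.3 was higher and asp-12 and Y76B12C.8 were lower among 10 members with 5 RPKM in either library, where 4.19% of all models compared were higher and 2.14% lower. In the double mutant, scrm-4 was higher and Y76B12C.8 lower of 11 (3.3% and 1.6% of all). In the triple mutant, scrm-4, rnh-1.3, W03G1.4, Y55F3C.6 and K02B7.1 were higher and F53A9.1 lower of 15 (3.76% and 1.7% of all). With the last 3 counted as 1 item, that leaves 3 items higher. The intervals excluded 1 for rnh-1.3, scrm-4 and asp-12 and included 1 for Y76B12C.8 and F53A9.1.

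**Figure D5:**
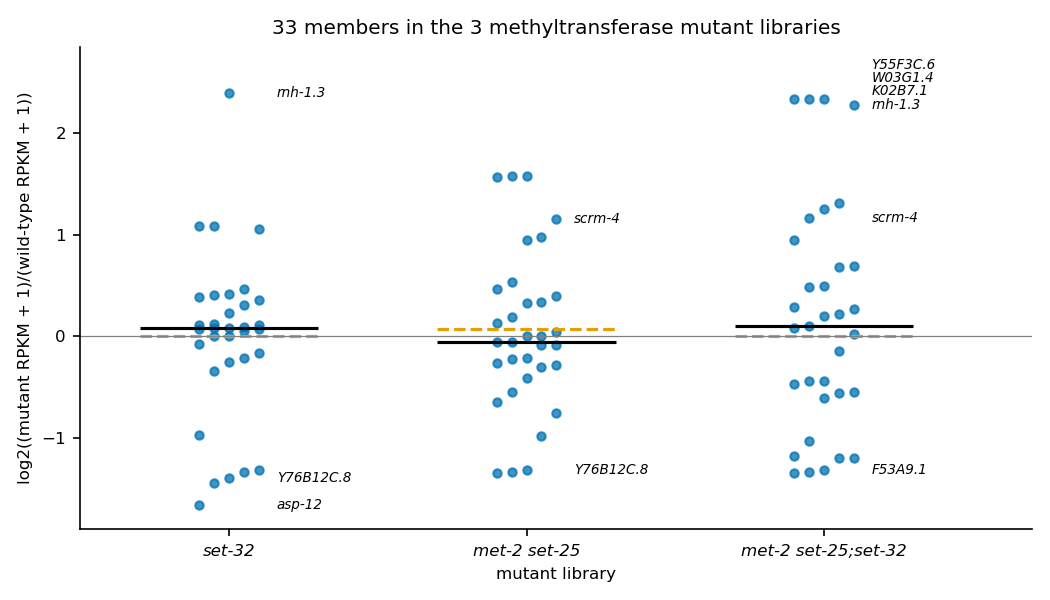
log2((mutant RPKM + 1)/(wild-type RPKM + 1)) (y axis) of each member (points) in the 3 methyltransferase mutant libraries (x axis). Black lines are the members' medians (0.08, -0.06 and 0.11), dashed orange lines the medians of 13648 other models, and names mark the members at least 2-fold from wild type with 5 RPKM in either library.

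The members were compared with the 41 GRTS or GRH models that passed the same values. Those had a median of 21.75 RPKM in hrde-1 and 1.09 in wild type, and a median fold over the highest other library of 5.12. At least 4-fold was reached by 23 of the 41 (56.1%) and by 7 of the 33 members (21.2%), and 0 RPKM in wild type was found in 14 of the 41 and in 2 members. Both sets were chosen with the same values, so these are descriptions.

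By the authors' germline classes 3 members (9.09%) were germline genes, against 16.5% of the models on neither list with 5 RPKM in hrde-1. Y38H6C.21 and Y55F3C.6 were classed as intrinsic and W03G1.4 as oocyte. W03G1.4 and Y55F3C.6 have the same values and were taken above as 1 observation. Y38H6C.21 had an estimated 1.64 reads in hrde-1. Its estimates in the other libraries (0.61, 0.61, 0.21 and 0.41) were below a single read, so its read numbers may be too low. Of the 29 members with a position, 11 were on chromosome V, 6 on II, 5 on I, 4 on X and 3 on IV, and 0 were on III. The expressed models on neither list were spread as 16.4% on V, 17.2% on II, 18.8% on I, 12.2% on X, 17.3% on IV and 18.2% on III. Of these 29, 27 were protein-coding and 2 pseudogenes.

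The members did not lie next to each other. None started within 20 kb of another member gene, and 2 lay within 10 kb of a target-list model of another gene: Y48G1BM.8, above, and lea-1, 9.17 kb from the GRH model F57A8.1 (13.15, 15.28, 14, 13.65 and 11.22 RPKM). D2096.9 lay 13.9 kb from the GRH gene timm-17B.2, a mitochondrial import gene with 17.35, 204.26, 9.65, 113.04 and 441.89 RPKM. An annotated gene overlapped 10 members, including both nhr-88 models, so reads of either could have been counted for the other.

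No model on the list of nuclear RNAi genes was a member, though 1 of them, set-25, is on the GRH list and was left out by the rule. Besides hrde-1 and nrde genes, the list holds the methyltransferase genes met-2, set-25 and set-32 and others such as hpl-2 and lin-61. It counts nrde-4 by both F45E4.10a and F45E4.10b.1. Of the 14 models on the list, 0 were 2-fold higher and 0 lower in hrde-1 than in wild type. Their ratios on RPKM ran from 0.702 for hrde-1 to 1.297 for nrde-3.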

How the data were processed

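The authors used Bowtie 0.12.7 and WS190 as the genome. Perfect alignments alone entered, a read with several sites was shared evenly among them, and RPKM per gene model was deposited by the authors. Models were matched by sequence name to WBcel235 (Ensembl release 115): 20315 (97.1%), with 29 of 33 members. Coordinates are those of WBcel235, and annotated lengths can differ from the authors' own.

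Ratios were computed on RPKM + 1 (pseudocount 1), and a model was called higher or lower by a rule of size (2-fold, with 5 RPKM in the higher library). RPKM carries no counts. Reads were estimated from the steps between low values. Only 45.8% to 46.8% of low values came out whole (tolerance 0.1 reads, 20% by chance). Read numbers are therefore approximate, and no count test was run. For ratios to a floor, 3 reads stood in for a value of 0, and such ratios leave out the counting error in hrde-1. No p-value was computed.

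Members and the 15 gene lists were chosen with earlier results of these data known. The naming rule took the 15 largest excesses, the 10 most abundant members, list members, neighbours, threshold cases and the extremes of the nuclear RNAi list. Other members, relatives and neighbours were named after their values were seen. Python 3.11.15, pandas 2.3.3 and scipy 1.17.1 were used, and the procedure was tested on simulated data. The simulation held counting error only. Its planted changes were larger than the excess of most members and lay in models above the level of most of them. It therefore does not cover most members.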

Additional observations from a re-analysis of the deposited data

How the results depend on the processing

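The number of models higher in hrde-1 alone (33) depended on the settings. It was 14 with a pseudocount of 5, 96 with no filter on low values, 21 with a filter of 10 RPKM, 14 at 3-fold, and 16 where 4 counting intervals also had to exclude 1. It was 48 with a pseudocount of 0.1, 27 with libraries rescaled to a median ratio of 1, and 32 with models of the same values counted once. With 1 of the other libraries left out of the rule it ran from 42 to 50, with 50 without set-32 and 50 without the triple mutant. The members' median log2 ratios in the methyltransferase mutants moved by less than the spread over members, but in the double mutant the sign turned, from -0.06 to 0.04, with members of at least 1 RPKM on average, and in the triple mutant the median went from 0.11 to 0.20. No paired analysis was possible because each genotype had 1 library. At 1811100 reads, the hrde-1 library gives 5 RPKM on short models from fewer than 10 reads, and the differences between genotypes have no replicate check.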
